A study of Mus musculus with 12 samples.

Results

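The comparison described here is the response of control mouse fibroblast-like synoviocytes to TNF. It rests on 6 of the series' 12 libraries, 3 from cells given an adenovirus carrying eGFP (Ade5CMV-eGFP, called control) and 3 from cells given the same virus and then TNF (called control_TNF). TNF was the recombinant human protein, added at 10 ng/mL for 16 h. Every library of both groups carries the eGFP virus, so the effect of infection itself is in both. The cells were cultured from the synovium of animals labelled SoxC mice, and the labels call the genotype of these groups control. The labels used here name neither the strain nor the age of the mice, and do not say if replicates are separate animals or cultures. The other 6 libraries come from cells given Ade5CMV-Cre, labelled SoxC knockout, without and with TNF. A gene was kept if 3 or more of the 6 control-cell libraries held it at a normalized count of 10 or higher, which left 17083 of the 53341 genes in the table. The effect is the difference of group means of log2(normalized count + 1), called the log2 change, and the 3 differences between libraries with the same number stand beside it.

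Fibroblast-like synoviocytes line the joint and make its matrix and lubricating fluid. In inflamed joints they become a source of chemokines, cytokines and matrix-degrading enzymes, and TNF is a main driver of that state. TNF binds the receptors Tnfrsf1a and Tnfrsf1b, and the human protein acts on mouse cells mainly through Tnfrsf1a. Adaptor proteins at the receptor free NF-kB factors from their IkB inhibitors, and NF-kB then switches on inflammatory genes along with genes that shut the pathway down again.

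The libraries numbered 3 stood apart. Each library summed to between 21.1 and 22.2 M normalized counts. The first principal component of the 6 libraries held 66.8% of the variance and set control_3 (score 53.3) and control_TNF_3 (86.6) apart from control_1, control_2 and control_TNF_2 (-52.3, -50.6 and -47.8), with control_TNF_1 between them (10.8). The second, with 13.6%, had the 3 controls at 15.1 to 35.7 and the 3 TNF libraries at -33.8 to -11.3. All 12 fibroblast markers were above 0 in every library. Their summed level was 267739 and 234160 in the libraries numbered 3, and 386170 to 528480 in the other 4. The proliferation marker Mki67 was at 1866, 1988 and 173 in controls 1, 2 and 3, and at 993, 1656 and 90.7 in the TNF libraries 1, 2 and 3. In bulk RNA, fewer cells of a type and less RNA per cell cannot be told apart. The summed level of 13 macrophage markers was 1482, 1486 and 3598 in control and 2046, 1607 and 4169 with TNF, and the pan-leukocyte marker Ptprc was at 6.59 or lower in all 6. Liver transcripts stood out in control_TNF_2, where the hepatocyte markers summed to 758 against 108 to 157 in the other 5, and albumin (Alb) was at 382 against 4.24 or lower. Over the 6 libraries the summed markers were at 212 to 341 for endothelial cells, 482 to 758 for epithelial cells, 1996 to 3312 for chondrocytes, 1260 to 3078 for osteoblasts and 523 to 1027 for adipocytes. Most of the chondrocyte sum was Comp (1758 to 2733), and most of the osteoblast sum was Alpl (875 to 1894) with Runx2 (309 to 1110). Most of the adipocyte sum was Fabp4 (516 to 1001). Col2a1 was at 47.5 to 211 and Sox9 at 159 to 351, while Acan, Ibsp and Adipoq were at 4.33, 5.97 and 3.92 or lower.

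More genes were called up than down. In the limma fit of all 12 libraries with 1 mean per group, 53 genes (0.31% of those kept) rose and 6 (0.0351%) fell at an adjusted p under 0.05. Fitted to the 6 control-cell libraries alone, without a block, limma called 0 genes up and 0 down (648 at an unadjusted p under 0.05, smallest adjusted p = 0.0512), so without a block these calls needed the knockout libraries in the fit. With the replicate number as a block, which takes out what libraries of the same number share, 217 genes (1.27%) rose and 96 (0.562%) fell, and all 59 genes of the first fit were among these 313 (1.83%). The block fit on the 6 libraries alone called 340 up and 221 down. Below, a gene that rose or fell did so in the first fit unless it is said to have done so with the block. Counts of called list members are to be read beside the shares of all genes kept. These were 0.31% up and 0.0351% down without the block, and 1.27% and 0.562% with it. With the libraries numbered 3 left out they were 202 up and 77 down of 17083. Over all genes kept the median log2 change was -0.02, and the 5th and 95th percentiles were -0.66 and 0.64. Of the 53 genes that rose, 50 did so at least 2-fold, 22 at least 4-fold and 4 at least 8-fold, and for all 53 the lowest TNF library lay above the highest control. The 3 same-number differences had 1 sign for all 313 genes, as they did, upwards or downwards, for 20.2% and 22.6% of all genes kept. Among all genes kept, 784 (4.59%) had TNF libraries wholly above the controls and 688 (4.03%) wholly below. The calls were sensitive to single libraries. Acod1, Ccl5, Trdc and the long noncoding RNA Gm16685 were the 4 genes of 53 that rose in all 6 fits that left out 1 library each, and Galnt9 was the 1 of 6 that fell in all of them. With the block, 89 of the 217 and 20 of the 96 were called in all 6 such fits. The counts without a block were 8 up and 1 down without control_1, 10 and 1 without control_2, 40 and 2 without control_3, 4 and 1 without control_TNF_1, 21 and 1 without control_TNF_2, and 19 and 3 without control_TNF_3. Leaving out the 4 libraries numbered 3, an alternative chosen after seeing the data, gave 202 up and 77 down without a block, of which 169 and 59 were also called with the block in all 12 libraries.

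**Figure D1:**
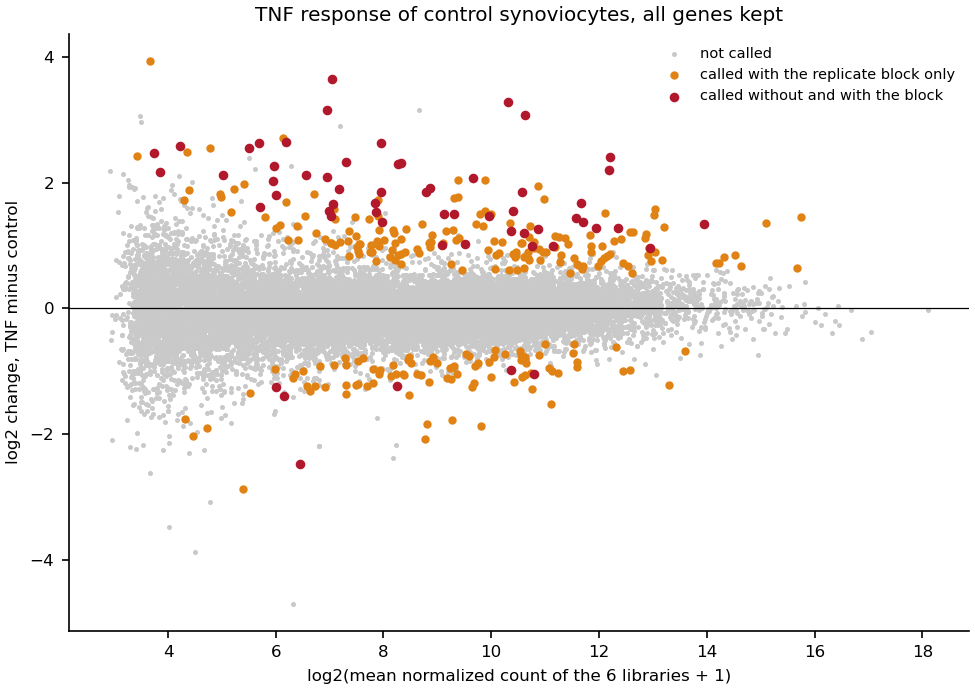
Log2 change, TNF minus control, of each of the 17083 genes kept against the log2 of its mean normalized count over the 6 libraries plus 1. Red points are the 59 genes called without and with the replicate block, orange points those called with the block only, and most orange and red points lie above 0.

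No gene of the receptor and proximal adaptor list was called, among 20 kept, with or without the block (median log2 change 0.06). Tnfrsf1a, the receptor with the death domain, was at 4017, 4184 and 4728 in control and 3565, 3251 and 3849 with TNF (log2 change -0.28, SE 0.19, limma adjusted p = 0.997). Tnfrsf1b, the second TNF receptor, was at 4631, 4548 and 4120, and at 5034, 6074 and 4415 with TNF (0.21, SE 0.17). The TNF libraries lay below the controls for Tnfrsf1a and overlapped them for Tnfrsf1b. Tnf itself, measured with mouse annotation, was low and rose from 19.9, 19.7 and 37.3 to 70.6, 80.8 and 79.1 (log2 change 1.61, SE 0.29, adjusted p = 0.0479). Its TNF libraries were all above the highest control, and its adjusted p was close to the threshold.

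Among NF-kB subunits and their inhibitors calls were made with the block only. Of 10 kept, none was called without it and 5 rose with it (median log2 change 0.74), and the same 5 rose with the libraries numbered 3 left out. Nfkbia, which encodes the main IkB inhibitor and is itself a classical NF-kB target, went from 2503, 2592 and 3555 to 5697, 4967 and 6347 (0.99; adjusted p = 0.00148 with the block, 0.103 without). Nfkb2, the precursor of the p52 subunit, went from 1753, 1825 and 1410 to 3719, 3611 and 3500 (1.13; adjusted p = 0.00812 with the block, 0.0564 without). Its TNF values lay closer together than those of most genes named here, at 3610 ± 109 (SD, n = 3). Nfkbie, Relb and Nfkb1 changed by 1.23, 1.06 and 0.70 and rose with the block. Rela, the p65 subunit, was at 2034, 2282 and 2147 in control and 2611, 2570 and 2877 with TNF, a log2 change of 0.32 that was not called in either fit (adjusted p = 0.494 with the block). Nfkb2 shares exon sequence over 299 bases with Psd on the other strand, and the signal of that stretch cannot be separated. Psd was the low member of the pair, with means of 151 in control and 318 with TNF against 1663 and 3610 for Nfkb2. The log2 change of Psd was 1.07 (rose with the block), and how much of it came from Nfkb2 was not tested.

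Feedback regulators limit the pathway once it is on. Of 16 kept, Traf1, Tnip3 and Tnip1 rose, and 7 rose with the block (median 0.57). Traf1, an adaptor that modulates TNF receptor signalling, went from 22.1, 17.8 and 30.7 to 92.0, 86.3 and 114 (log2 change 2.03, SE 0.28, adjusted p = 0.0123). Tnip1 and Tnip3 encode proteins that bind A20, the ubiquitin-editing brake on NF-kB. Tnip1 went from 2070, 2161 and 2658 to 4954, 5226 and 6494, and its same-number differences were nearly equal at 1.26, 1.27 and 1.29. Tnip3 went from 88.3, 125 and 147 to 341, 307 and 380.1 (1.53, adjusted p = 0.0181). Tnfaip3, which encodes A20, went from 1597, 1672 and 1241 to 3189, 4510 and 2481 and rose with the block (1.14, adjusted p = 0.000987 with it and 0.139 without). Birc3, a ubiquitin ligase of the TNF receptor complex chosen with its values known, changed by 1.08 and also rose with the block.

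The promoters of several of these genes hold a match to the NF-kB consensus. The stretches below, on the gene's strand from RefSeq (GRCm38.p6), are shown because they belong to inhibitor, subunit and brake genes just described whose windows hold a match, marked by capitals.
Nfkbia, chr12:55492648-55492696: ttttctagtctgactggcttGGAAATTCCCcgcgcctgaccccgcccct
Nfkb2, chr19:46304678-46304728: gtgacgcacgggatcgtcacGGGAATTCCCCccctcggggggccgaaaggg
Tnip1, chr11:54962967-54963018: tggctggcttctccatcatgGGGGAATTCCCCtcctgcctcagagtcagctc
Tnip3, chr6:65590324-65590373: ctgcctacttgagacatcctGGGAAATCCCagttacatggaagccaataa
Tnfaip3, chr10:19015506-19015555: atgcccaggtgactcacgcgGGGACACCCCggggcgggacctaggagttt
The first base of the match lies 29 bases before the annotated start for Nfkbia, 39 for Nfkb2, 58 for Tnip1, 54 for Tnip3 and 125 for Tnfaip3. Nfkb2 and Tnfaip3 each have a second match in the same window, at 11 and 12 bases, and Nfkbie has 1 at 106. The windows of Traf1 and Birc3 hold none. A match is a description of the letters and shows no binding.

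In the AP-1 and immediate early list none of 13 genes kept was called in either fit (median 0.15). Junb, its member with the highest mean, was at 3949, 3681 and 5514 in control and 8673, 4854 and 8128 with TNF (0.70, SE 0.34). One TNF library, control_TNF_2, lay among the controls.

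Chemokines held many of the genes with the largest changes. Of 27 chemokine genes kept, 13 CC and 14 CXC or CX3C, 8 rose without the block and 14 with it, and none fell. The median log2 change was 0.68 over the CC genes and 1.19 over the CXC and CX3C genes. Ccl5, which draws T cells and monocytes, was at 239, 191 and 279 in control and 2815, 2229 and 1878 with TNF. Its same-number differences were 3.55, 3.54 and 2.75 (log2 change 3.28, SE 0.26, adjusted p = 0.0012), and it was called in every fit that left out 1 library. Ccl3, which draws monocytes and other leukocytes, went from 14.3, 19.9 and 38 to 153, 172 and 336, with differences of 3.33, 3.05 and 3.11. Both libraries numbered 3 were the highest of their group for Ccl3, and the differences were almost the same. Cx3cl1, the membrane-bound chemokine also called fractalkine, went from 1722, 1981 and 1274 to 8621, 8193 and 6003 (2.20, SE 0.29, adjusted p = 0.00892). Ccl17, a ligand of Ccr4, went from 9.56, 7.47 and 19.6 to 112, 76.3 and 42.1. Its difference was 1.06 for number 3 against 3.42 and 3.19 for the other numbers.

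Ccl20, the ligand of Ccr6 on Th17 cells, rose from 1591, 1705 and 2296 to 5584, 3947 and 4930 (1.37, adjusted p = 0.0259). Ccl9 rose from 261, 345 and 399 to 904, 857 and 1051 (1.5, adjusted p = 0.00892). Among the CXC genes that act on neutrophils through Cxcr2, Cxcl3 rose from 1530, 1379 and 1738 to 5938, 4223 and 4802 (1.68, adjusted p = 0.00675). Cxcl2 went from 594, 591 and 1179 to 2852, 2349 and 3604 and rose with the block (1.95, adjusted p = 0.000124 with it and 0.0578 without). Cxcl1 (chosen, like Cxcl5 and Ccl2, with its values known) was at 14284, 13832 and 22457 in control and 29326, 23142 and 38874 with TNF (0.86; adjusted p = 0.003 with the block, 0.585 without). Cxcl5 was at 40447, 39806 and 42033, and at 74307, 60026 and 58344 with TNF (0.65). Ccl2, the monocyte chemoattractant, was at 18192, 17285 and 22623, and at 36314, 24749 and 32792 with TNF (0.68). Both rose with the block only (adjusted p = 0.0299 and 0.0352). Cxcl9 and Cxcl10, ligands of Cxcr3, changed by 1.76 and 1.55, and their number 3 differences (0.90 and 0.72) were the smallest of the 3. Cxcl10 rose, from 532, 601 and 956 to 2566, 1903 and 1576 (adjusted p = 0.0288), and Cxcl9 rose with the block (0.00542 with it, 0.0678 without). Ccl2, called with the block, was no longer called with the libraries numbered 3 left out.

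The promoters of 4 CXC genes and Ccl20 are shown, since all 5 rose, Cxcl1 and Cxcl2 with the block, and each window holds an NF-kB match, in capitals. Cxcl10 has 2 matches, shown on separate lines.
Cxcl1, chr5:90891154-90891204: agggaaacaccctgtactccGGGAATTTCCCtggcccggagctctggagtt
Cxcl2, chr5:90903782-90903832: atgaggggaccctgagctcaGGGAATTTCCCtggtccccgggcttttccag
Cxcl3, chr5:90786008-90786058: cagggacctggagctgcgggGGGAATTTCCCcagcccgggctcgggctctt
Cxcl10 far, chr5:92349019-92349068: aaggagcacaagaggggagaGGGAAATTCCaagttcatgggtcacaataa
Cxcl10 near, chr5:92348963-92349013: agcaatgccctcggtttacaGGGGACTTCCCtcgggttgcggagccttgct
Ccl20, chr1:83116666-83116715: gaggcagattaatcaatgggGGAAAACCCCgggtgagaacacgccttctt
Cxcl1, Cxcl2 and Cxcl3 carry the same match, starting 71, 97 and 73 bases before the start. The Cxcl10 matches begin 159 and 104 bases before it, and that of Ccl20 begins 80 bases before it. Ccl9 has a match at 35 bases that is not shown, and the windows of Ccl3, Ccl17, Cx3cl1 and Cxcl9, which were also called, hold none.

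Many chemokine genes that rose lie side by side. On chromosome 11 (mm10, 83511736 to 83711348, 199.6 kb), 9 genes were kept, 8 of them were higher with TNF, and Ccl5, Ccl9, Ccl3 and Wfdc18 rose. With the block Heatr9 and Wfdc17 rose too. Wfdc18, a member of the family of secreted small proteins with a WAP domain, had the largest log2 change of the 53 genes that rose, from 9.56, 23.2 and 25.5 to 263, 175 and 291 (3.65, SE 0.42, adjusted p = 0.00579). Heatr9, chosen with its values known, was listed at 2.03, 0 and 0 in control and at 24.9, 31.1 and 12.2 with TNF. Ccl6 in the same stretch was at 57.5, 69.7 and 222 and at 102, 47.7 and 264 with TNF, with no difference beyond the spread. Cx3cl1 and Ccl17 lie within 40.0 kb on chromosome 8, and Cxcl1 and Cxcl2 within 14.7 kb on chromosome 5. Counting neighbours up to 100 kb away, 6 of the 53 genes that rose (11.3%) had another riser as a neighbour, and 50 of the 217 with the block (23%). Of all genes kept, 1.17% and 5.15% had such a neighbour. Near copies of 1 gene can share reads, so neighbouring family members may not be counted independently.

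**Figure D2:**
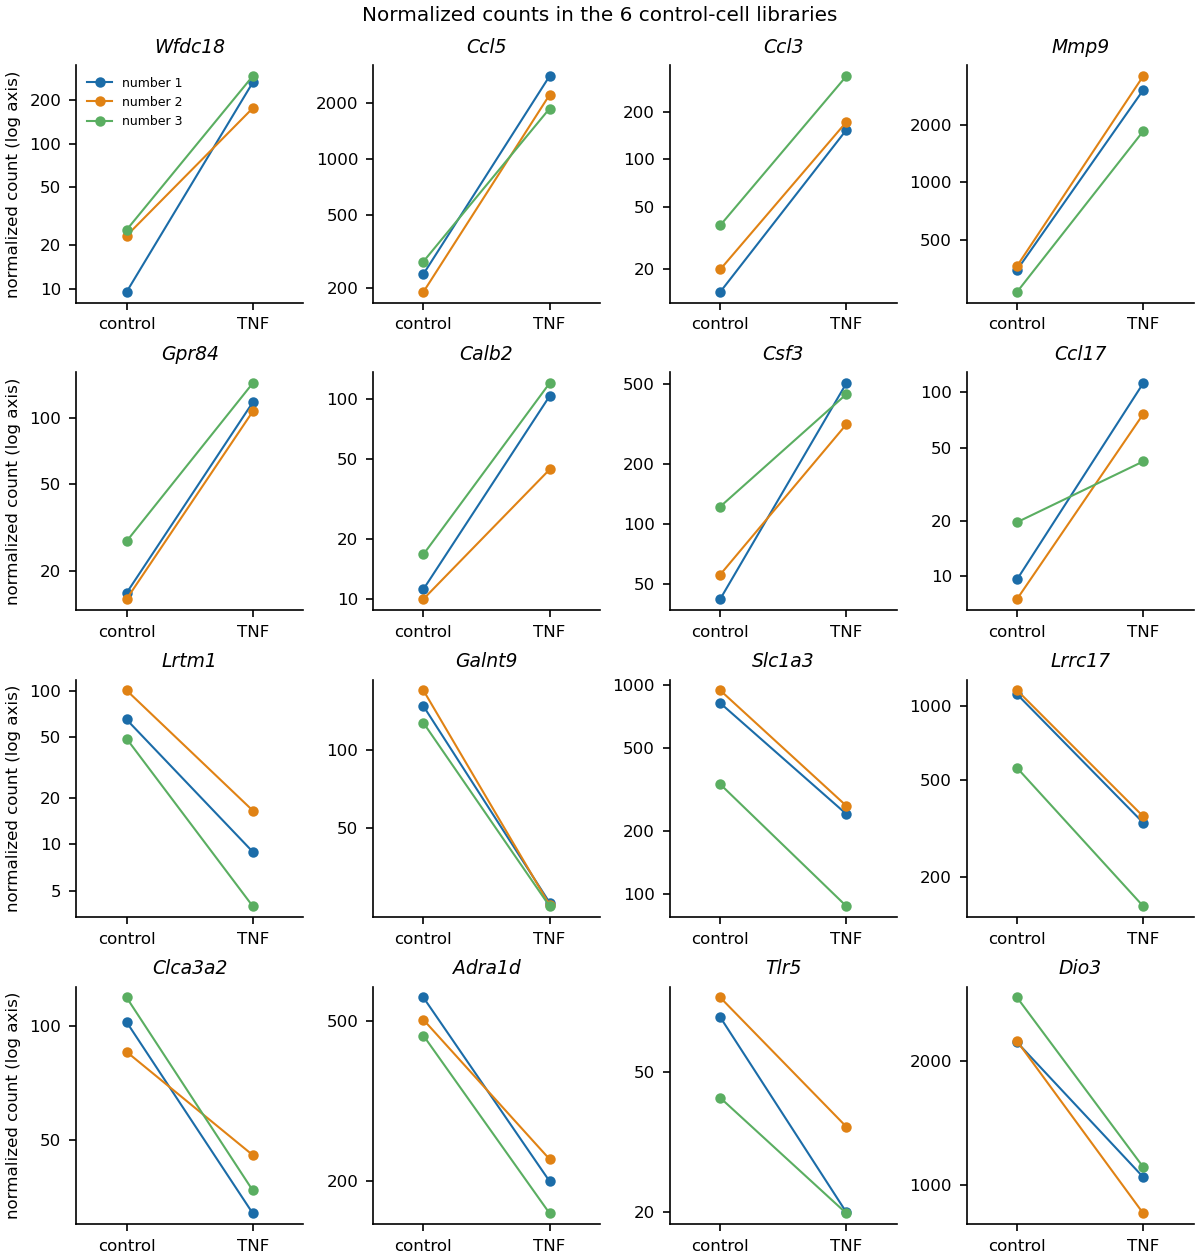
Normalized count (log axis) of 16 genes in the 6 control-cell libraries, without and with TNF, with lines joining libraries of the same number. Ccl5 rises from 191 to 279 to between 1878 and 2815, and Galnt9 falls from between 127 and 169 to about 25 in all 3 TNF libraries.

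Several secreted cytokines rose. Of 20 cytokine genes kept, 4 rose (Csf3, Tslp, Il1a and Tnf), 7 rose with the block and 1 fell with it (median 0.23). Csf3, the granulocyte growth factor, was at 42.0, 55.7 and 122 in control and 506, 315 and 446 with TNF (2.63, SE 0.46, adjusted p = 0.0476). Its differences were 3.56, 2.48 and 1.86. Csf2, the granulocyte and macrophage growth factor, went from 291, 258 and 597 to 1515, 1179 and 1799 and rose with the block (2.05, adjusted p = 0.000124 with it and 0.0564 without). Tslp, an epithelial-type cytokine that acts on dendritic cells, went from 226, 252 and 488 to 1527, 1102 and 1262 (2.08, adjusted p = 0.0106). Il1a, an interleukin-1 family alarm cytokine, went from 152, 165 and 261 to 582, 655 and 827 (1.86, adjusted p = 0.0218). For each of these 4 genes the highest control library was control_3, and every TNF library lay above it. Il6 and Lif, named after their values were seen, share the receptor subunit gp130 for signalling. Il6 was at 4706, 4871 and 6216 and at 11907, 8448 and 10618 with TNF (0.97), and Lif at 3237, 3094 and 5239 and at 7819, 7992 and 10662 (1.22). Both rose with the block only (adjusted p = 0.0373 and 0.000368). Il16, also named after its values were seen, was the gene of the list that fell with the block (-0.91). Of 26 cytokine receptors none was called without the block, and Cd40 and Ifngr2 rose with it (median 0.22). Cd40, the receptor for the T cell ligand Cd40lg, went from 173, 205 and 573 to 748, 675 and 1648, with differences of 2.11, 1.71 and 1.52.

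Innate sensors detect microbial products and cell damage. Of 16 genes of the Toll-like receptor and inflammasome list, Tlr2 and Nlrp3 rose, Nod2 rose with the block and Tlr5 fell with it (median 0.25). Tlr2, a receptor for bacterial lipoproteins, had almost equal controls (1116, 1069 and 1108) and went to 2573, 2949 and 2418 (1.26, SE 0.16, adjusted p = 0.00892). Nlrp3, the inflammasome sensor, went from 116, 100 and 109.8 to 338, 407 and 308 (1.68, adjusted p = 0.0138). Tlr5, the receptor for flagellin, went the other way, from 71.5, 81.3 and 42.2 to 19.9, 34.9 and 19.8 (-1.35, adjusted p = 0.023 with the block and 0.195 without). With the libraries numbered 3 left out, Tlr2 and Nlrp3 were called, and Nod2 and Tlr5 were not.

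Matrix metalloproteinases break down collagen and other matrix proteins. Of 18 kept, Mmp9, Mmp10 and Mmp13 rose and 5 rose with the block, and none fell (median 0.09). Mmp9, a gelatinase on chromosome 2, was at 347, 363 and 266 in control and 3041, 3597 and 1851 with TNF (3.08, SE 0.33, adjusted p = 0.00433). The other 4 lie close together on chromosome 9. Mmp10, a stromelysin, went from 947, 1150 and 2717 to 6811, 6464 and 10151 (2.41, adjusted p = 0.0476). Its sister stromelysin Mmp3 went from 22337, 23584 and 43818 to 70350, 64547 and 103976 (1.45; adjusted p = 0.000512 with the block, 0.139 without). Mmp13, the main collagenase of rodents, went from 7093, 7876 and 12470 to 20188, 22716 and 24977 (1.35, adjusted p = 0.0476). For Mmp3, Mmp10 and Mmp13 the libraries numbered 3 were the highest of each group. Mmp1a, an interstitial collagenase, stayed low, at 1.59, 9.18 and 15.7 and at 51.7, 44.4 and 36.6 with TNF, and rose with the block (adjusted p = 0.0483). The gelatinase Mmp2, chosen with its values known, was at 14646, 15297 and 11523 and at 14099, 16226 and 13437 with TNF (0.08), with overlapping groups.

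The promoters of Mmp3, Mmp10 and Mmp13 on chromosome 9 are shown because each holds the AP-1 motif TGANTCA, in capitals, near the start.
Mmp3, chr9:7445756-7445802: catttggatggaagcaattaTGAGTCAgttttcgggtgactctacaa
Mmp10, chr9:7502259-7502305: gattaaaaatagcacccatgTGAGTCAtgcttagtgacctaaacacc
Mmp13, chr9:7272459-7272505: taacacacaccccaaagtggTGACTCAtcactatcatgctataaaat
The matches begin 46, 63 and 35 bases before the start of Mmp3, Mmp10 and Mmp13. The window of Mmp1a, which rose with the block, holds the motif too, at 73 bases, and is not shown.

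Among related proteases and inhibitors the calls went in both directions. Of 14 genes of the ADAMTS and TIMP list none was called without the block. With it the aggrecanase Adamts4 and the procollagen peptidase Adamts14 rose, and Timp3 fell (median 0.00). Adamts4 went from 1222, 1096 and 693 to 2159, 2460 and 1533 (1.04, adjusted p = 0.00177 with the block). Timp3, a matrix-bound inhibitor of metalloproteinases and of the TNF-shedding enzyme Adam17, went from 16134, 16349 and 9639 to 5443, 8324 and 4488 (-1.21, adjusted p = 0.00117 with the block and 0.391 without). All 3 TNF libraries of Timp3 lay below all 3 controls. Timp1, chosen with its values known, was at 27582, 25320 and 39669 and at 46759, 32735 and 49646 with TNF (0.49, adjusted p = 0.259 with the block). In the list of plasminogen activators and serpins 1 of 14 rose (median 0.11), against 0.31% of all genes kept, and a count of 1 says little about the list. This was Serpinb2, an inhibitor of plasminogen activators, which went from 649, 705 and 625 to 2562, 2578 and 2019 (1.85, SE 0.23, adjusted p = 0.00892).

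Enzymes that make signalling lipids, nitric oxide and immune metabolites changed in both directions. Of 15 inflammatory metabolic enzymes 2 rose, Acod1 and Ch25h, 7 rose with the block and Dio3 fell with it (median 0.82). Acod1, which makes itaconate, went from 76.9, 114 and 137 to 543, 567 and 490.4 (2.31, SE 0.23, adjusted p = 0.0026). Ch25h, which makes 25-hydroxycholesterol, went from 1458, 1467 and 2029 to 4680, 4022 and 4557 (1.43, adjusted p = 0.0115). Arg2 and Gch1, an arginase and the enzyme that starts tetrahydrobiopterin synthesis, changed by 1.82 and 1.5 and rose with the block (adjusted p = 0.00202 and 0.000731). Dio3, which inactivates thyroid hormone, went from 2227, 2242 and 2863 to 1046, 854 and 1107 (-1.28; adjusted p = 0.00206 with the block, 0.0564 without).

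In the prostaglandin and nitric oxide list 1 of 16 genes rose, 3 rose with the block and 1 fell with it (median 0.36). Ptgir, the prostacyclin receptor, rose from 377, 362 and 342 to 783, 721 and 682, with differences of 1.05, 0.99 and 0.99 (1.01, adjusted p = 0.0259). Nos2, the inducible nitric oxide synthase, went from 5028, 5339 and 2371 to 12878, 17506 and 7682 (1.59; adjusted p = 0.000557 with the block, 0.405 without). Ptges, the inducible prostaglandin E synthase, went from 3685, 3938 and 9151 to 10200, 9429 and 20569 (1.30; 0.000708 with the block, 0.868 without). Nos2 was lowest and Ptges highest in the libraries numbered 3, and their same-number differences still lay within 1.36 to 1.71 and 1.17 to 1.47. Hpgd, which breaks prostaglandins down, went from 262, 372 and 236 to 129, 112 and 121 and fell with the block (-1.23, adjusted p = 0.0392). Ptgs2, the inducible cyclooxygenase, chosen with its values known, was at 19418, 19299 and 10271 in control and 24283, 32118 and 13244 with TNF, a log2 change of 0.47 that was not called in either fit. Of 16 antioxidant genes none rose without the block, and Sod2, Srxn1 and Nqo1 rose with it (median 0.37). Sod2, the mitochondrial superoxide dismutase, went from 3820, 3975 and 6029 to 10654, 8134 and 12572 (1.19).

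Adhesion molecules tie cells to leukocytes and to matrix. Of 16 kept, Vcam1 and Itgb3 rose, Icam1 rose with the block and Itga1 fell with it (median 0.18). Vcam1, a marker of activated synoviocytes and a ligand of the leukocyte integrin VLA-4, had a narrow spread, from 5347, 5562 and 5152 to 10090, 11297 and 9790 (0.95, SE 0.15, adjusted p = 0.0259). It was the smallest log2 change among the 53 genes that rose. Icam1, a ligand of the integrin LFA-1, went from 2582, 2643 and 4662 to 5016, 4734 and 7557 (0.83; adjusted p = 0.031 with the block, 0.997 without). Itgb3, the integrin beta 3 chain, went from 857, 881 and 624 to 1688, 2307 and 1567 (1.23, adjusted p = 0.0475). Itga1, a collagen-binding integrin chain, went from 1730, 1862 and 511 to 633, 1129 and 235 and fell with the block (-1.10, adjusted p = 0.0132), though its groups overlapped.

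Interferon-inducible genes were called mostly with the block, with which 1.27% of all genes kept rose. With the libraries numbered 3 left out, a fit chosen after seeing the data, 202 of the 17083 genes kept were called up. Of 16 interferon-inducible GTPases Gbp2 rose, 4 rose with the block, and 8 were called up with the libraries numbered 3 left out (median 0.79). Gbp2 went from 2575, 2876 and 3782 to 6624, 7812 and 7768 (1.28, adjusted p = 0.016). Of 34 antiviral genes 1 rose, Irf1, with the block (878, 776 and 1250 to 1680, 1476 and 2061, 0.86), and 6 did with the libraries numbered 3 left out (median 0.47). In control_3 these genes were already high. Their summed level was 65016, 66515 and 94513 in control and 98680, 94149 and 107040 with TNF. Of 20 MHC class I and immunoproteasome genes none rose without the block and 8 did with it (median 0.67). Psmb10, an inducible proteasome subunit, went from 514, 551 and 1201 to 1758, 1275 and 2542 (1.35), and H2-Q6, an MHC class I gene, from 1010, 1096 and 2365 to 2684, 2412 and 4459 (1.15). H2-Q4, H2-Q6 and other MHC class I genes are near copies, so their separate values are uncertain.

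Acute phase and antimicrobial genes were called with the block only, apart from Cfb. Of 11 acute phase genes none rose without the block, and Saa3 and S100a8 rose with it (median 0.74). Saa3, the serum amyloid A made outside the liver, went from 13107, 12402 and 35539 to 48429, 27753 and 73231 (1.36, adjusted p = 0.00423 with the block). S100a8, a neutrophil calcium-binding protein, went from 43.1, 44.8 and 226 to 180.1, 113 and 454, and Camp, the cathelicidin precursor, from 461, 429 and 1175 to 1242, 674 and 1920. Both are among 10 neutrophil markers, of which 3 were kept, and the summed marker level was 531, 525 and 1439 in control and 1490, 849 and 2396 with TNF. The other marker kept, Cxcr2, was at 22.3, 42.3 and 27.85 in control and 54.2, 41.6 and 19.8 with TNF. The neutrophil markers S100a9 and Ly6g, which were not kept, were at 4.75 or lower and 3.88 or lower in all 6 libraries. In the complement list, 1 of 17 genes rose (median 0.10). It was factor B, Cfb, from 1477, 1435 and 1646 to 2967, 2875 and 3262, with differences of 1.01, 1.0 and 0.99 (adjusted p = 0.048). Masp1, a serine protease of the lectin pathway, fell with the block (-0.95).

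Some of the genes with the largest rise belong to none of the lists. Gpr84, a receptor for medium-chain fatty acids, went from 15.9, 14.9 and 27.5 to 119, 108 and 145 (2.65, SE 0.37, adjusted p = 0.0123). Calb2, the calcium-binding protein calretinin, went from 11.2, 9.96 and 16.7 to 103, 44.4 and 120.0 (2.64, adjusted p = 0.0138). Slc36a2, an amino acid transporter, went from 69.3, 54.3 and 33.3 to 334, 258 and 192 (2.32), and Tmem132e, a membrane protein, from 27.1, 23.5 and 12.7 to 96.9, 127 and 82.1 (2.26). Both were lowest in the library numbered 3 of each group. Lyzl4, a lysozyme-like gene, went from 6.68, 13 and 13.3 to 68.9, 54.6 and 32.3 (2.13), and Adtrp, a lipid esterase, from 35.1, 25.6 and 42.7 to 152, 114 and 194 (2.12). Trdc, the constant region of the T cell receptor delta chain, was named after its values were seen and rose from 159, 196 and 232 to 679, 812 and 705 (1.91, SE 0.19, adjusted p = 0.0026). The 9 T and B cell markers summed to 33.2 or less in each library and Cd3e was listed at 0 in all 6. Gm16685, named after its values were seen, rose from 112, 77.9 and 125 to 502, 563 and 474 (2.30, adjusted p = 0.0026). It is a noncoding gene that overlaps Il7 on the other strand over 105 exonic bases, and Il7 changed by -0.55 and was not called.

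**Figure D3:**
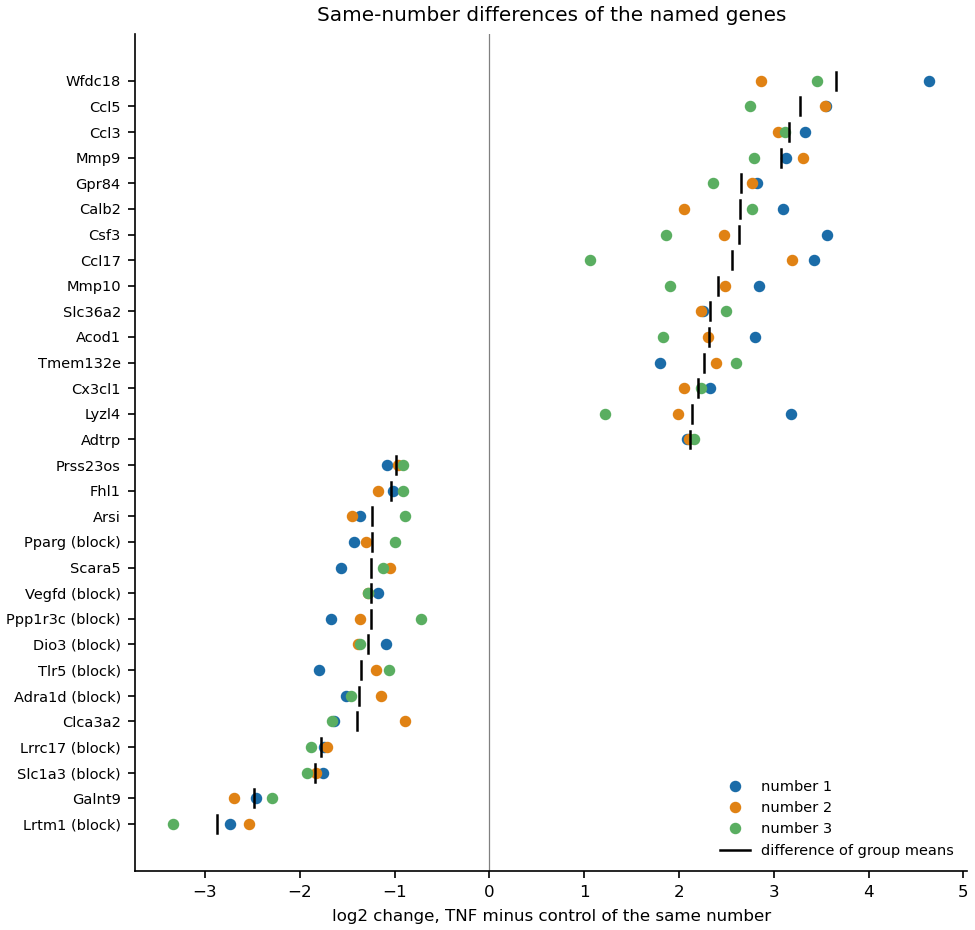
Log2 change between libraries of the same number, TNF minus control, for the 15 genes with the largest rise and the 15 with the largest fall that met the naming rule. Points are the 3 numbers, bars the difference of group means, and genes marked (block) passed only with the replicate block. All points lie on the side of their gene's mean, which the rule of no overlap between groups fixed in advance.

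The 6 genes that fell have unlike roles. Galnt9, which encodes an enzyme that adds GalNAc sugars to proteins, had the clearest fall, from 147, 169 and 127 to 25.9, 25.3 and 25 (-2.48, SE 0.22, adjusted p = 0.00163). Its TNF libraries were at 25.4 ± 0.414 (SD, n = 3), and it was the only gene of its list of 16 to fall without the block. Galnt13 fell with the block (-1.05, adjusted p = 0.0246), and the list's median was -0.18. Clca3a2 went from 102, 85.5 and 119 to 32.1, 45.7 and 36.9 (-1.40), and Scara5, a scavenger receptor for ferritin, from 102, 81.3 and 84.3 to 33.8, 38.8 and 38.2 (-1.24). Arsi, an arylsulfatase, went from 399.6, 460.2 and 415 to 154, 167 and 224 (-1.24), and Fhl1, a LIM-domain protein of muscle and fibroblasts, from 2246, 2381 and 2498 to 1105, 1051 and 1326 (-1.04). Adjusted p for these 4 lay between 0.0218 and 0.0483. Prss23os, a noncoding gene, went from 1746, 1775 and 1742 to 824, 907 and 923 (-0.99). It shares 864 exonic bases with the protease gene Prss23 on the other strand, which went from 3640, 3477 and 3720 to 2376, 1969 and 2297 and fell with the block (-0.71). The sources used here do not state whether counting used strand, so the reads of the pair cannot be told apart. The same holds for the shared exons of Cxcl10 and Art3, Il1a and Gm14023, Arg2 and Vti1b, Timp3 and Syn3, and Ch25h and Gm26902, among other pairs on opposite strands. The partner's mean was the lower one for Timp3 (Syn3 at 14.5 in control and 9.30 with TNF) and Ch25h (Gm26902 at 121 and 171). It was also lower for Il1a (Gm14023 at 20.2 and 33.8) and Cxcl10 (Art3 at 264 and 304). Arg2 was the low member of its pair, at 47.3 and 159 against 2333 and 2794 for Vti1b.

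Other genes fell with the block only. Lrtm1, a membrane protein with leucine-rich repeats, went from 65.3, 101 and 49.0 to 8.95, 16.6 and 3.95 (-2.87, adjusted p = 0.000774 with the block and 0.0547 without). Slc1a3, the glutamate and aspartate transporter, went from 818, 941 and 335 to 241, 263 and 87.3. Its same-number differences were -1.76, -1.83 and -1.93, and its adjusted p was 9.44e-05 with the block and 0.659 without. Lrrc17, a secreted inhibitor of osteoclast formation, went from 1121, 1163 and 559.5 to 333, 354 and 152, with differences of -1.75, -1.71 and -1.88 (adjusted p = 0.000162 with the block, 0.42 without). In both genes the libraries numbered 3 were lower than the others of their group, and the TNF libraries lay below all controls. Adra1d, an alpha-1 adrenergic receptor, changed by -1.37, the glycogen-targeting subunit Ppp1r3c by -1.25, the lymphatic growth factor Vegfd by -1.25 and the nuclear receptor Pparg by -1.24. Npr3, the clearance receptor for natriuretic peptides, named after its values were seen, went from 909, 962 and 254 to 166, 261 and 67.9 (-2.07, adjusted p = 0.000242 with the block). Its groups overlapped, and control_3 was below control_TNF_2. Of the 96 genes that fell with the block, control_3 was the lowest control for 76, against 47.1% of all genes kept. It was the highest control for 147 of the 217 that rose with the block and 35 of the 53 that rose without it, against 43.9% of all genes kept.

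Wnt and TGF-beta family genes moved in both directions. Of 21 Wnt ligands and antagonists Dkk1 rose, and with the block Wnt4, Wif1, Dkk2, Sfrp1 and Sfrp2 fell (median -0.29). Dkk1, a secreted Wnt antagonist known to act on bone in arthritis, went from 36.2, 50.6 and 51.0 to 226, 221 and 155 (2.10, SE 0.27, adjusted p = 0.00892). Wnt4 went from 299.8, 290.1 and 626 to 155, 137 and 288, with differences of -0.95, -1.08 and -1.12 (-1.05, adjusted p = 0.0121 with the block and 0.997 without). The antagonist Wif1 changed by -1.75 and Sfrp2 by -0.87. Of these 5 only Sfrp1 and Sfrp2 were called with the libraries numbered 3 left out. Of 25 BMP and TGF-beta ligands and antagonists none was called without the block. With it Bmp2 (1.08) and Bmp6 (0.78) rose, and Tgfb3 (-1.03) and Tgfb2 (-0.76) fell (median -0.28). Tgfb3 went from 3544, 3556 and 2612 to 1554, 1855 and 1332 (adjusted p = 0.000774 with the block, 0.103 without). Of 25 growth and angiogenic factors Pdgfb rose, from 294, 302 and 271 to 873, 758 and 843 (1.51, adjusted p = 0.0124). The list's median was -0.07. Igfbp3, which binds insulin-like growth factors, was the 1 of 10 genes of its list to rise, with the block (0.80).

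Matrix, contractile and lining genes were called with the block only. Of all genes kept 1.83% were called with it, so counts of 0 to 2 in lists of this size say little about the lists. Of 20 collagens none was called without the block (median -0.24). Col1a1, the main fibrillar collagen chain, was at 200391, 187287 and 77152 and at 130600, 156310 and 65696 with TNF (-0.37, SE 0.51). With the block Col5a3 rose (0.90) and Col11a1 fell (-0.74). None of 25 matrix glycoproteins was called in either fit (median -0.27). Fibronectin, Fn1, was at 197067, 174513 and 52202 and at 88490, 165946 and 44194 (-0.49, SE 0.67). For both Col1a1 and Fn1 the groups overlapped and the libraries numbered 3 were the lowest. Of 14 contractile genes Mylk and Lmod1 fell with the block (-0.87 and -0.78, median -0.27). In the same libraries the 11 skeletal muscle markers summed to 856, 881 and 1100 in control and 526, 484 and 674 with TNF, and their part in this was not tested. Most of that sum was Acta1, at 638, 646 and 835 in control and 337, 280 and 465 with TNF (-0.99). Of the 6 muscle markers kept, 4 were lower in all 3 same-number differences and 0 higher, and none was called in either fit. In the hyaluronan list 1 of 10 was called, the synthase Has2, which fell with the block (-0.99, adjusted p = 0.0395, median of the list 0.21), from 3438, 3596 and 1771 to 1616, 2342 and 731. Of 17 lining and sublining markers Cd34 rose with the block (0.90, median -0.28), and the lubricin gene Prg4, chosen with its values known, was at 18346, 16642 and 5886 and at 9853, 15128 and 4531 (-0.47, not called). Neither the 27 cell cycle genes (median -0.12) nor the 19 cholesterol synthesis genes (median 0.00) held a called gene in either fit. In the glycolysis and hypoxia list 1 of 22 rose, the prolyl hydroxylase Egln3 (1.0), and in the death and survival list 1 of 17, Bid, rose with the block (0.62).

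Some calls did not hold without the libraries numbered 3. Besides Ccl2, Nod2, Tlr5, Wnt4, Wif1 and Dkk2, these were Heatr9, Wfdc17, Camp and Bmp6 among the risers with the block, and Adra1d, Galnt13, Il16, Itga1, Masp1, Tgfb2, Col11a1 and Has2 among the genes that fell with it. Clca3a2, which fell in the first fit, was not called there either.

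**Figure D4:**
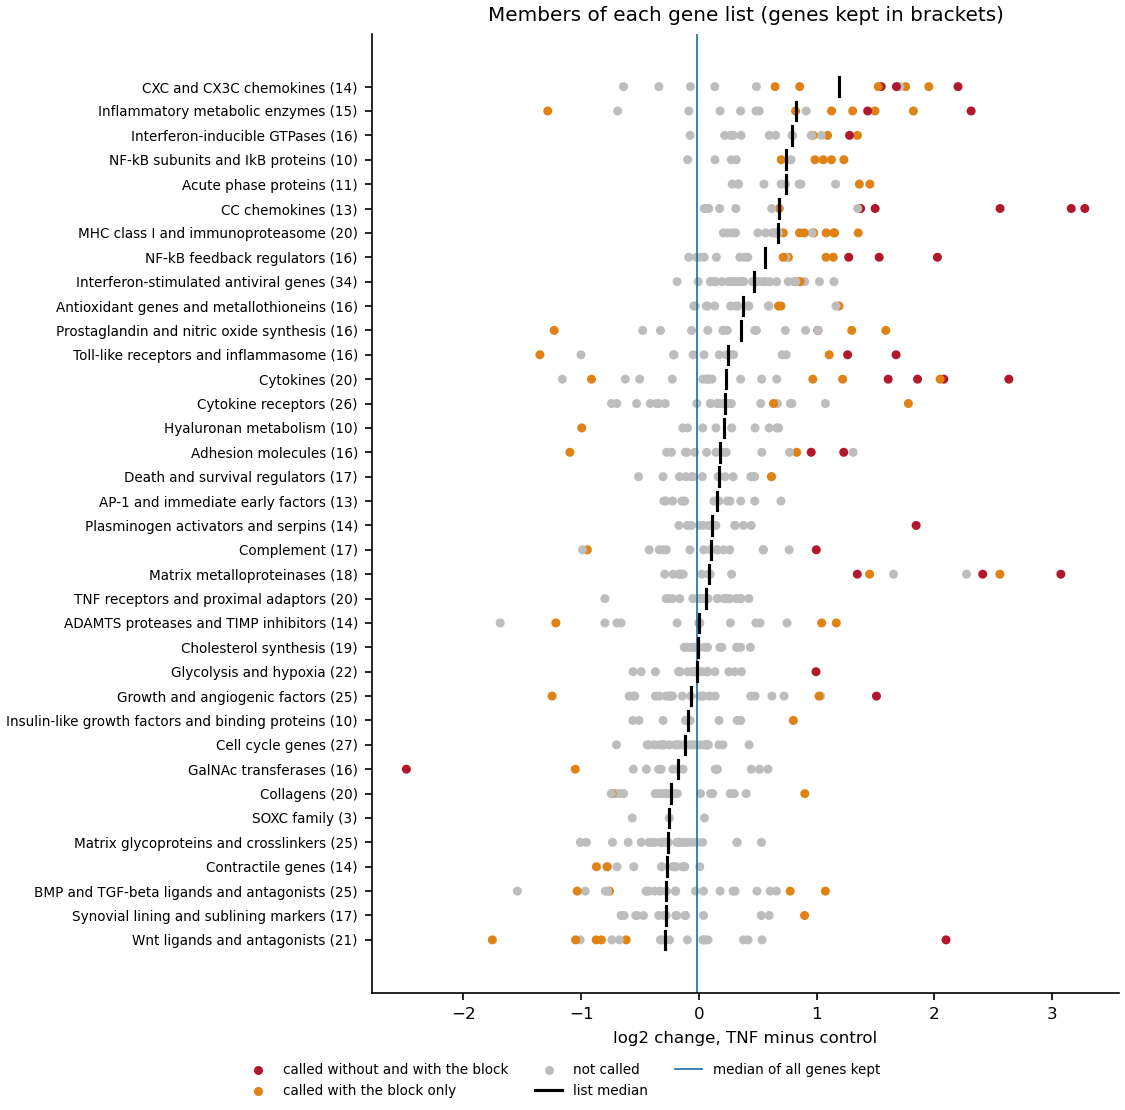
Log2 change, TNF minus control, of each kept member of 36 gene lists, with the number kept in brackets. Red points rose or fell without and with the block, orange points with the block only, and black bars are list medians beside the blue line at the median of all genes kept (-0.02). Chemokine points reach 3.28, and the adaptor, cell cycle and cholesterol lists hold grey points only.

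The SOXC genes were not called. Sox4 was at 4238, 4143 and 1857 in control and 1697, 3646 and 1625 with TNF, with differences of -1.32, -0.18 and -0.19 (log2 change -0.57, SE 0.48, adjusted p = 0.997 without the block and 0.323 with it). Sox11 was at 269, 272 and 153 and at 194, 248 and 138 (-0.25, SE 0.67), and Sox12 at 352, 342 and 162 and at 278, 326 and 237 (0.05, SE 0.33). The groups overlapped for all 3. Sox4 shares 2616 exonic bases with Gm26735 on the other strand, which was listed at 0 in control_1, control_2 and control_TNF_2, the 3 libraries with the most Sox4.

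The knockout cells offer other libraries for these genes, though not independent ones, since their spread also entered the fit that called the genes. All 53 genes that rose and all 6 that fell in control cells had the same sign there, with a median log2 change in knockout cells of 1.56 for the risers. Of all genes kept 44.4% had the same sign in both. The risers were chosen on their change in control cells, so the knockout median is not set against one from control cells. In knockout cells 46 genes (0.269%) rose and 9 (0.0527%) fell, among them 31 of the 53 and 3 of the 6. These calls use the same estimate of spread as the calls in control cells. The difference between the 2 responses, tested for every gene, was called for none (232 genes at an unadjusted p under 0.05 without the block and 3035 with it, limma).

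Promoter windows of risers held NF-kB, AP-1 and TATA matches more often than windows of all genes kept. Windows were 250 bases before to 50 after each RefSeq start (GRCm38.p6) and both strands were searched for each motif, with overlapping matches joined. Of 41 windows of 35 genes that rose, 14 (34.1%) held an NF-kB match, against 10.4% of the 14562 windows of all genes kept. With the block it was 46 of 173 windows (26.6%) of risers and 9 of 86 (10.5%) of genes that fell. AP-1 matches (TGANTCA) were in 9 of the 41 windows (22%), against 5.57% of all kept, and with the block in 17.9% of risers' windows and 9.3% of windows of genes that fell. The TATA box motif (TATAAA) was in 15 (36.6%), against 7.81%, and with the block in 23.1% and 16.3%. These shares are given without a test, several windows belong to 1 gene, and over all 32851 windows in the table, whether or not the gene was kept, the NF-kB share was 8.46%, the AP-1 share 7.81% and the TATA share 13.6%.

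**Figure D5:**
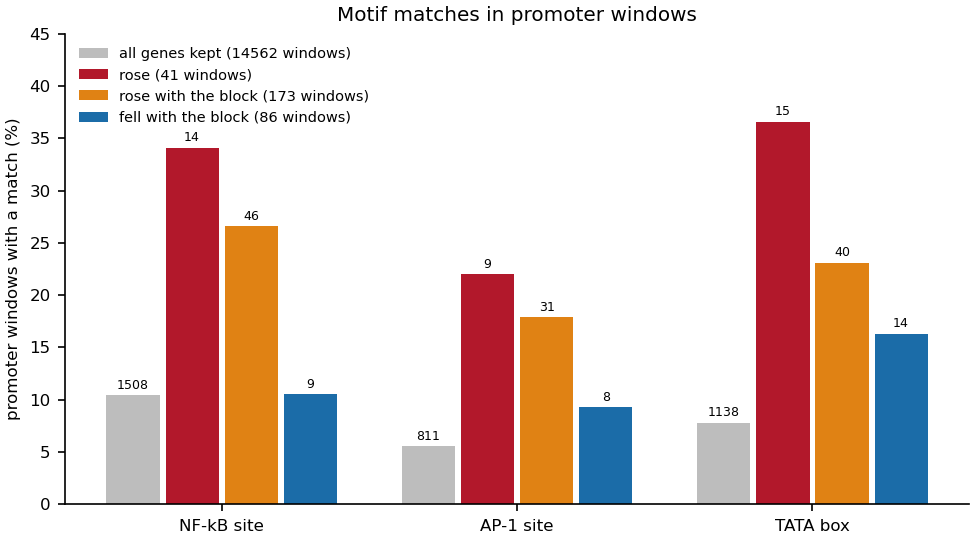
Share of promoter windows with at least 1 match to each motif, for windows of all genes kept, of genes that rose, and of genes that rose or fell with the block; numbers above bars are windows with a match. The NF-kB share is 34.1% for risers and 10.4% for all genes kept.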

How the data were processed

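Poly(A) RNA of cultured mouse synoviocytes was sequenced as paired reads, per the labels' protocols. The authors deposited normalized values on a log2 scale for each gene and library, per the file headers. The submitters' processing notes name mm10 and DESeq. Which aligner and annotation were used, and whether strand was, is stated nowhere in the sources used here. Normalized counts are 2 to the power of these log2 values, with 0 left at 0. They are not whole reads, so no count model was run. Read depth is unknown, and low genes carry more counting error.

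Groups and numbers came from the sample titles. Genes with at least 10 normalized counts in at least 3 of the 6 control-cell libraries were analysed as log2(normalized count + 1), which understates changes of low genes. Limma 3.58.1 (R 4.3.3) fitted 4 group means to all 12 libraries with an intensity trend, and p-values were adjusted by Benjamini-Hochberg over the 17083 genes, at a threshold of 0.05. The fit was checked on simulated data. The labels do not show that libraries are separate cultures, so p-values measure only their spread, possibly a technical one. Figures used Python 3.11.15 and matplotlib 3.10.9.

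To check the pairing, group means were removed and libraries of the same number correlated. The correlation was 0.117, 0.630 and 0.766 for control against control_TNF and 0.388, 0.171 and 0.536 for knockout without against with TNF, all above 0.1, so values with the replicate block stand beside results whose call it changes. The libraries numbered 3 stood apart, control_1 correlated more with control_TNF_2 (0.651) than with its own number, and knockout library 2 more with knockout TNF library 1 (0.451) than with its own, so the check cannot tell pairs from that shared difference. In the fit of all 12 libraries the block gave each number a single effect, shared by control and knockout cells. Whether same-numbered control and knockout libraries correlate was not checked.

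Named genes are, for each direction, the 15 largest changes among genes called without the block and, where these were fewer, with it, at a mean of at least 50, no overlap between groups and no clone name; up to 4 called members of each list, or the member with the highest mean; and Sox4, Sox11, Sox12, Tnf, Tnfrsf1a, Tnfrsf1b and Rela. Some are left out for length. The members, the 36 gene lists and the 11 marker lists were chosen with earlier results of these data known. Promoter windows and gene models were RefSeq (GRCm38.p6) and GENCODE (GRCm38). Of the 59 genes called without the block, 38 had a promoter window. Alternatives were no block, the 6 libraries alone, other pseudocounts and filters, upper quartile rescaling, no trend, and leaving out libraries.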

Additional observations from a re-analysis of the deposited data

How the results depend on the processing

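Without the block 53 genes rose and 6 fell. With the replicate block the counts were 217 and 96. A fit on the 6 control-cell libraries alone called 0 and 0 without the block (648 genes at an unadjusted p under 0.05, smallest adjusted p = 0.0512, limma) and 340 and 221 with the replicate block, of which 217 and 94 were those of the block fit on all 12 libraries. Without a filter on low values 31 rose and 2 fell, with more genes tested. Leaving out the 4 libraries numbered 3, chosen after seeing the data, gave 202 and 77. Leaving out each of the 6 libraries in turn gave 4 to 40 up and 1 to 3 down without the block. With the replicate block, also chosen after seeing the data, the counts up and down were 100 and 23 without control_1, 97 and 23 without control_2, 147 and 40 without control_3, 125 and 33 without control_TNF_1, 142 and 92 without control_TNF_2, and 117 and 35 without control_TNF_3. The cause of the changed counts was not tested for any alternative. Pseudocounts of 5 and 0.5, a filter over 12 libraries, upper quartile rescaling and no trend gave 42 to 56 up and 4 to 7 down. Rescaling moved the median log2 change of all genes by 0.014. Among the 124 named genes, none called in the first fit or in an alternative had the opposite sign in that alternative. Sign changes of genes called in neither were not counted. Of the 124, 64 were called with the block and not without it. The difference between knockout and control responses was called for 0 genes in each fit that included the knockout libraries. With 3 libraries a group the precision is limited, and depth cannot be read from normalized values.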

Other observations

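Of the genes kept, 21 were at 50 or more normalized counts in 1 of the 6 libraries and listed at 0 in another. Gm26735, Gm26527 and Gm5831 were listed at 0 in control_1, control_2 and control_TNF_2 and at 50.7 or more in control_3, control_TNF_1 and control_TNF_3. Gm26735 was at 854.5, 820.2 and 730.3 in those 3 libraries, and Gm26527 at 223.8, 424.8 and 222.4. Scores on the first principal component were positive in the latter 3 (53.3, 10.8 and 86.6) and negative in the former 3 (-52.3, -50.6 and -47.8). Ugt1a1, Ugt1a5 and Ugt1a8, which share exons, were listed at 0 in control_TNF_2 and at 118 to 157 in the other 5. Gm16439 was listed at 0 in control_TNF_1, control_TNF_2 and all 3 knockout libraries with TNF, and at 81.2 to 148 in the other 7. These genes were picked for their zeros after their values were seen, a listed 0 can be a failed estimate, and none was called in either fit.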
